A study of Homo sapiens with 6 samples.

Results

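The genes described here are the human AKR1C enzymes, their relatives AKR1B1 and AKR1B10, the transcription factor NRF2 (gene NFE2L2) and 4 of its best known target genes, NQO1, GCLM, GCLC and TXNRD1. Members were all probe sets annotated to any of these 10 genes, and 26 of the 54613 probe sets that are not controls were found, for 9 of the 10 genes. AKR1B1 was not analysed here, since no probe set of the annotation used carries its name. The genes were picked because AKR1C3 differed between these same arrays, so the values of the 26 probe sets in that comparison describe them and test nothing. K562 is an established human leukemia cell line of erythroid and megakaryocytic character. The 4 CTCF arrays hold RNA from KCTCF-D11, K562 cells with a stably integrated pCDNA-CTCF expression vector. The 2 empty vector arrays hold RNA from KpCDNA, K562 cells stably carrying pCDNA without an insert, and no group had any other treatment. CTCF is a zinc finger protein that binds insulators and anchors chromatin loops together with cohesin. KCTCF-D11 is a single named transfectant, so CTCF and a property of that transfectant, or of the empty vector cells, cannot be told apart. The labels do not say whether replicates were separate cultures, so the errors given here cover only how these 6 samples vary, and that variation may be technical.

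AKR1C1, AKR1C2, AKR1C3 and AKR1C4 are NADPH-dependent aldo-keto reductases encoded side by side on the short arm of chromosome 10. They reduce steroids, prostaglandins, bile acid precursors and reactive aldehydes, and AKR1C3 also acts as a 17-beta-hydroxysteroid dehydrogenase and as a prostaglandin F synthase that is studied in myeloid leukemia. NRF2 is held in the cytoplasm and marked for degradation by KEAP1, and on oxidative or electrophilic stress it enters the nucleus, pairs with small MAF proteins and binds the antioxidant response element, a site that the repressor BACH1 competes for. AKR1C1, AKR1C2, AKR1C3 and AKR1B10 are known as NRF2 targets in human epithelial cells, as are NQO1, GCLM, GCLC and TXNRD1 in many cell types.

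The promoters of the AKR1C members are shown because these neighbouring genes are so alike in sequence while their probe sets gave different readings, and those of GCLM and TXNRD1 because they hold the antioxidant response element core. Each is RefSeq sequence of GRCh38.p14 from 250 bases before a transcription start to 50 bases after it, 5′ to 3′ on the gene's strand, with matches to the core in capitals.
AKR1C1, chr10:4963165-4963464, plus strand: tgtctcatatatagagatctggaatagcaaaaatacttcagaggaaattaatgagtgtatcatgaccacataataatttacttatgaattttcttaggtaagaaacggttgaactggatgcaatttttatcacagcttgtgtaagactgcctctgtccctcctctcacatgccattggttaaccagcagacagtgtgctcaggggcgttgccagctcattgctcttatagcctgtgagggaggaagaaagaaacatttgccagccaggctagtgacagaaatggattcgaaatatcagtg
AKR1C2, chr10:5003808-5004107, minus strand: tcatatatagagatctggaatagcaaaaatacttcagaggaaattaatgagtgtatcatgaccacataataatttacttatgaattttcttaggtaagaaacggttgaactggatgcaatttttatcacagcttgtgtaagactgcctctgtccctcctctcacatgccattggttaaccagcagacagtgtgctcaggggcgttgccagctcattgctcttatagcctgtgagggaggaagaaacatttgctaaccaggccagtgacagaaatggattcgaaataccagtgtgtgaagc
AKR1C3 first start, chr10:5048531-5048830, plus strand: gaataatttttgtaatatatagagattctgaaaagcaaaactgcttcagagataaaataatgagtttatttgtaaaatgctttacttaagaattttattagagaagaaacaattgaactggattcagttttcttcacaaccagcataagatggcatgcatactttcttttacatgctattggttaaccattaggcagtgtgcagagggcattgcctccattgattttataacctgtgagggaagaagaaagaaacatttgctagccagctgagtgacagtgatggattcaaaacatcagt
AKR1C3 second start, chr10:5094164-5094463, plus strand: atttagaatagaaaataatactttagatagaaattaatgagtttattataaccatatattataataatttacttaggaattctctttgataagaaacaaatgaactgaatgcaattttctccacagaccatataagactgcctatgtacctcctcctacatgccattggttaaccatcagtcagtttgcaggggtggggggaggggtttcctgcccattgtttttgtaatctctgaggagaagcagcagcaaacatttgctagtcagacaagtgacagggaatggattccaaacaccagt
GCLM, chr1:93909381-93909680, minus strand: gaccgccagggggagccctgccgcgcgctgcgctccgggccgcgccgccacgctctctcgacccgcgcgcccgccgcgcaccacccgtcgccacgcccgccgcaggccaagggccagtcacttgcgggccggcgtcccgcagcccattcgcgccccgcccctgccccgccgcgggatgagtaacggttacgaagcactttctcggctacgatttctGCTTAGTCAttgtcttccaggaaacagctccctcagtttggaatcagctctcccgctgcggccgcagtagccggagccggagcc
TXNRD1 first start, chr12:104215529-104215828, plus strand: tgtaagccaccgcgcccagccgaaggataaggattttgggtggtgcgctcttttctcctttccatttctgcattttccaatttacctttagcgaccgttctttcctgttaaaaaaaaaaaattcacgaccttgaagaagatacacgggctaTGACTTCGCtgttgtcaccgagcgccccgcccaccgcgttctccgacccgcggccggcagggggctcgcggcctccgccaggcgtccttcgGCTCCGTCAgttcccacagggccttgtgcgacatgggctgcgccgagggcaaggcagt
Of the 10 genes, 9 had promoters in the RefSeq table, 13 promoters in all. The core was searched as TGACNNNGC on both strands, and 13.3% of 35116 promoters of that length held it. It lay in 3 of the 13 promoters, those of GCLM and both of TXNRD1, and its letters were not in these windows of the AKR1C genes, AKR1B1, NQO1, GCLC or NFE2L2. Sequence outside the windows was not searched, so an element further from the start would not be seen. In GCLM the match read TGACTAAGC on the opposite strand, with its leftmost base 34 bases before the start. By global alignment the AKR1C1 and AKR1C2 promoters shared 288 of 300 bases. The promoters of AKR1C1 and AKR1C3 shared 227 at the first AKR1C3 start and 225 at the second.

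The 6 arrays fell into 2 sets that cross the groups when clustered on 45 spiked control transcripts of bacteria and phage. CTCF array 4 and empty vector array 1 formed the smaller set, and CTCF arrays 1, 2 and 3 with empty vector array 2 the larger. Pearson r across probe sets, which are not independent replicates, was 0.966 to 0.991 for the 7 pairs within a set and 0.877 to 0.907 for the 8 pairs between sets. For ACTB, the log2 excess of the 3′ over the 5′ control probe set, a measure of RNA quality, was 0.91 in CTCF array 4 and 0.81 in empty vector array 1, and the other arrays had 0.22 to 0.28. All values are intensities as deposited, on a linear scale, and array medians ran from 28.8 to 34.2. Log2 changes are those of log2(value + 16), CTCF over empty vector, from limma with the array set as a block, ± SE, and the added 16 understates the change of low values. "Rose" and "fell" refer to a Benjamini-Hochberg adjusted p under 0.05 over all probe sets in that fit. CTCF itself (202521_at) had 1311, 1614, 1332 and 1332 in CTCF arrays 1 to 4, against 457 and 634 in empty vector arrays 1 and 2. It rose by 1.29 ± 0.16 (limma, adjusted p = 0.0288). The call ended without the block and when any array but CTCF array 1 was left out. Of the K562 and erythroid markers 8 had a probe set, and all 8 averaged more than the median probe set, with summed intensities of 27848 to 32949 in the CTCF arrays and 21149 to 21162 in the empty vector arrays. Of all 19775 genes, 12108 averaged more than the median probe set. In 4 of the 8 markers all CTCF arrays lay above both empty vector arrays, and in 1 below both. Over all genes the shares were 8% and 9.63%. HBZ, the embryonic zeta globin, had 7672, 6977, 7067 and 6433 in CTCF arrays 1 to 4, against 1929 and 2591 in empty vector arrays 1 and 2, and rose by 1.58 ± 0.13 (limma, adjusted p = 0.0166, and 0.128 without the block). The 7 hepatocyte markers, of a tissue rich in AKR1C enzymes, summed to 132.8 to 462 in the CTCF arrays and 342 to 538 in the empty vector arrays, with ALB at 3.58 to 31.4 in the CTCF arrays and 26.2 and 18.9 in the empty vector arrays. Sums of the 5 epithelial markers were 6126 to 8303 and 7134 to 9108, and those of the 6 fibroblast markers 381 to 6448 and 386 to 6962, in CTCF and empty vector arrays. The high fibroblast sums came from COL3A1, at 6114 in CTCF array 4 and 6627 in empty vector array 1, the smaller set. In the larger set it had 146 to 165. All 6 samples are K562 by their titles, so these sums are readings of marker probe sets in 1 cell line. What lies behind them was not tested.

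AKR1C3 was about 4 times higher in the CTCF cells, while the 4 bright probe sets for AKR1C1 and AKR1C2 were near their empty vector values. The AKR1C3 probe set (209160_at) had 1042, 1051, 949.7 and 1179 in CTCF arrays 1 to 4, against 214 and 307 in empty vector arrays 1 and 2. The lowest CTCF array was about 3 times the higher empty vector array, and the groups did not overlap. Means were 1055 ± 94.1 in the CTCF cells (SD, n = 4) and 260.3 ± 65.7 in the empty vector cells (SD, n = 2). Its log2 change was 1.96 ± 0.18, or 3.88-fold, with differences of 2.38 in the smaller array set and 1.67 in the larger. The authors' deposited table, which lists 768 probe sets (1.41% of all), holds this probe set as the only member, with an experiment mean of 1051, a baseline mean of 263 and a fold change of 3.99 between bounds of 2.92 and 6.13. In bulk samples a larger share of cells with the transcript and more transcript per cell cannot be told apart.

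AKR1C3 was also the only member probe set past the adjusted threshold, and 1.86% of all 54613 probe sets passed it, 0.538% as higher and 1.32% as lower. Since the genes were chosen on this contrast, nothing is read from that count. Without the array set block 0 members passed, where 0.011% of all probe sets did, and 0 passed when any array but CTCF array 1 was left out. The log2 change of AKR1C3 then lay between 1.67 and 2.38.

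AKR1C1 and AKR1C2 are nearly identical enzymes, AKR1C1 known for inactivating progesterone and AKR1C2 for inactivating dihydrotestosterone. Their probe sets ending in x_at may bind the transcripts of several family members, so which gene each reads is uncertain. The AKR1C1 probe set 204151_x_at had 3517, 3471, 3148 and 3134 in CTCF arrays 1 to 4, against 3160.3 and 3553 in empty vector arrays 1 and 2. For 216594_x_at the values were 3098, 3059.8, 2713 and 2366 in the CTCF arrays, against 2444 and 2987 in the empty vector arrays. In both the groups overlapped, and the lower values were those of the smaller array set and of CTCF array 3. The AKR1C2 probe set 209699_x_at had 2924, 2844, 2638 and 2683 in the CTCF arrays, against 2733 and 2951 in the empty vector arrays. For 211653_x_at they were 2909, 2823, 2729 and 3094 in the CTCF arrays, against 3185 and 2783 in the empty vector arrays. The log2 changes of these 4 probe sets were -0.06 to -0.01. Their 95% intervals together spanned 0.79-fold to 1.21-fold, so a rise of the size of that of AKR1C3 lay outside each interval.

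**Figure D1:**
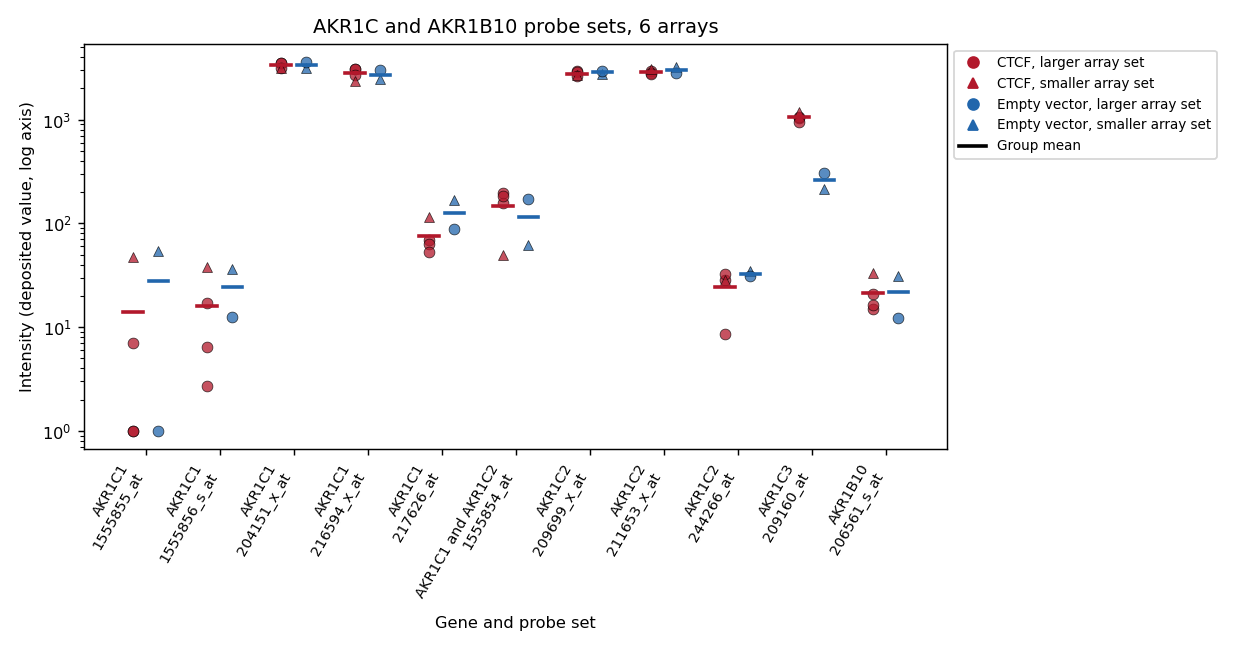
Intensity (log axis) of the 11 AKR1C and AKR1B10 probe sets on each array, CTCF in red and empty vector in blue, circles for the larger and triangles for the smaller array set, bars for group means. AKR1C3 stands apart, with all CTCF arrays at 949.7 or more and both empty vector arrays at 307 or less, while the groups overlap in the other probe sets.

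The other AKR1C1 and AKR1C2 probe sets read far lower than the bright ones, and all but AKR1C2 244266_at followed the array set. The probe set shared by AKR1C1 and AKR1C2 (1555854_at) had 157, 198, 185 and 49.6 in CTCF arrays 1 to 4, against 61.2 and 169.8 in empty vector arrays 1 and 2, so both low values were those of the smaller set. AKR1C1 217626_at had 68.5, 63.4, 52.8 and 114 in the CTCF arrays, against 166 and 87.5 in the empty vector arrays. Within each array set its CTCF values were the lower ones, with a log2 change of -0.45 ± 0.13, the lowest of the 26. AKR1C1 1555855_at and 1555856_s_at had 1.00 to 46.8 and 2.71 to 38.3 in the CTCF arrays, against 1.00 to 54.6 and 12.4 to 36.4 in the empty vector arrays, with the highest values of both in the smaller set. AKR1C2 244266_at had 8.48 to 32.3 in the CTCF arrays, against 31.1 and 34.4 in the empty vector arrays. AKR1B10, a retinal and aldehyde reductase (206561_s_at), had 15.0, 20.65, 16.3 and 33.5 in the CTCF arrays, against 30.9 and 12.2 in the empty vector arrays, with a log2 change of 0.17 ± 0.13. Its groups overlapped, and the pair of high values was again that of the smaller set.

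Genes around AKR1C3 on chromosome 10 showed no difference of its size, though several of them read low. AKR1C4, the liver type enzyme that follows the other AKR1C genes (210558_at), had 2.42 to 6.61 in the CTCF arrays, against 1.13 and 5.98 in the empty vector arrays. The 5 nearest measured genes on either side of AKR1C1 to AKR1C4 had log2 changes from -0.37 to 0.30, with a median of 0.14 against -0.02 over all genes. None of these 10 passed in limma, and 0 had an unadjusted p under 0.05, against 2.57% and 21.4% of all 19775 genes with 1 probe set each. NET1, a RhoA exchange factor on the far side, had 1603 to 2259 in the CTCF arrays, against 2036 and 2561 in the empty vector arrays, and a log2 change of -0.37 ± 0.15 (limma, adjusted p = 0.284). On the near side AKR1E2, another aldo-keto reductase, had 113 to 148 in the CTCF arrays, against 90.1 and 135 in the empty vector arrays (0.12 ± 0.14), and the pseudogene AKR1C6P 37.6 to 54.0 against 40.8 and 32.5 (0.19 ± 0.16). LINC00702, LINC00703 and LINC00705, noncoding RNA genes, had -0.36, 0.30 and 0.30, UCN3 0.11, TUBAL3 -0.12, CALML5 0.17 and CALML3 0.26, all with SE of 0.12 to 0.26. LINC00703, LINC00705, CALML5 and CALML3 had CTCF means of only 15.4, 8.73, 17.6 and 24.1. For these and AKR1C4 the added 16 compresses any change, so their small changes say little. LINC00702 and UCN3 were high only in the smaller array set, at 73.1 and 109 in CTCF array 4 and 98.3 and 103 in empty vector array 1.

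**Figure D2:**
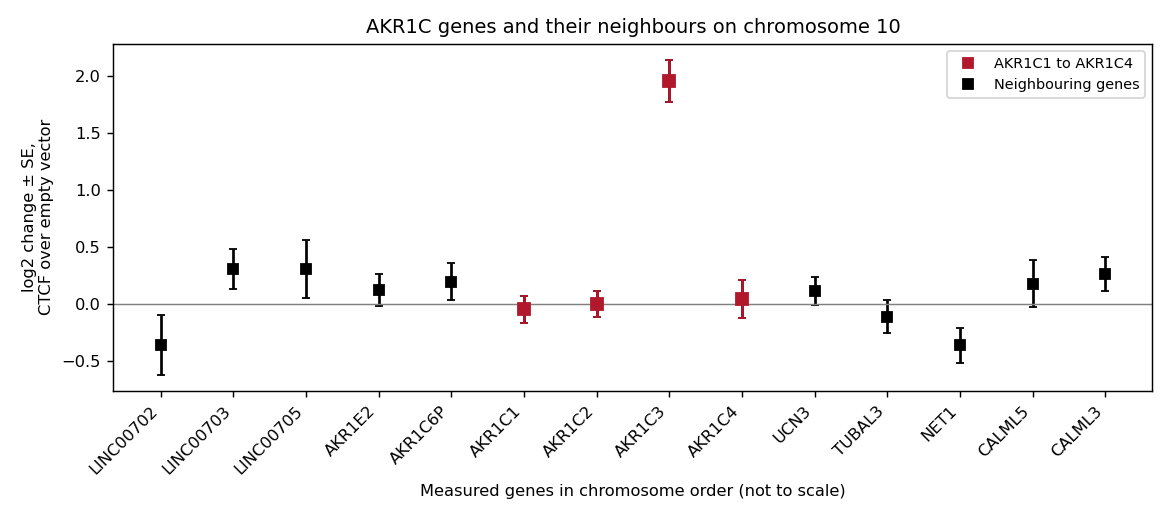
Log2 change ± SE (CTCF over empty vector, array set block) of measured genes in their order along chromosome 10, evenly spaced and not to scale, AKR1C1 to AKR1C4 in red. AKR1C3 is at 1.96 and the other genes shown are between -0.37 and 0.30.

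Around AKR1B10 and AKR1B1 on chromosome 7, 1 of the 10 nearest measured genes passed, where 2.57% of all genes did. EXOC4, a subunit of the exocyst that tethers secretory vesicles (224926_at), had 379, 390.0, 386 and 360.5 in CTCF arrays 1 to 4, against 676 and 759.8 in empty vector arrays 1 and 2. It fell by 0.92 on the log2 scale (SE 0.11; limma, adjusted p = 0.0267), and the call ended without the block and when any array but CTCF array 1 was left out. CYREN, a regulator of DNA end joining (220949_s_at), had 1316, 1298, 1163 and 1089 in the CTCF arrays, against 474 and 768 in the empty vector arrays. Its groups did not overlap, but its log2 change of 0.89 ± 0.15 did not pass (limma, adjusted p = 0.0551). The others, CHCHD3, LOC101928861, LRGUK, SLC35B4, BPGM, CALD1, AGBL3 and TMEM140, had log2 changes of -0.77 to 0.38. Among them BPGM, the bisphosphoglycerate mutase of red cells, had 238 to 479.7 in the CTCF arrays, against 190.2 and 458 in the empty vector arrays (0.09 ± 0.14).

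The members for NRF2 and its targets had small differences, most of them positive. Of their 15 probe sets 14 had a positive log2 change, where 25669 of all 54613 did, and 0 passed, where 1.86% of all did. The median was 0.27, against -0.02 over all probe sets. These probe sets stand only for NQO1, GCLM, GCLC, TXNRD1 and NFE2L2, so they are not 15 separate observations. Since the genes were chosen with this contrast known, nothing is read from these counts. NFE2L2 itself (201146_at) had 2683, 2334, 2181 and 1949 in CTCF arrays 1 to 4, against 1268 and 1909 in empty vector arrays 1 and 2. All CTCF arrays lay above both empty vector arrays, though CTCF array 4 exceeded empty vector array 2 only slightly, and the log2 change was 0.44 ± 0.15. NFE2L2 1567013_at had 152, 203, 199 and 32.2 in the CTCF arrays, against 34.35 and 132.7 in the empty vector arrays, low in both arrays of the smaller set. NFE2L2 1567015_at had 52.0 to 63.6 in the CTCF arrays, against 46.3 and 66.0 in the empty vector arrays. The probe set annotated to NFE2L2 and CSNK2A1 (1567014_s_at) had 225 to 316 against 235 and 267, and cannot be given to either gene.

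NQO1 is the quinone reductase most often used as a readout of NRF2. Its probe set 210519_s_at had 1025, 1599, 1575 and 916 in CTCF arrays 1 to 4, against 766 and 902 in empty vector arrays 1 and 2. The CTCF arrays were the higher group, with arrays 2 and 3 well above arrays 1 and 4, and the log2 change was 0.46 ± 0.23. For 201468_s_at the values were 491, 786, 759 and 748 in the CTCF arrays, against 637 and 347 in the empty vector arrays. For 201467_s_at they were 438, 824, 798 and 180.4 in the CTCF arrays, against 105.5 and 424 in the empty vector arrays. The groups overlapped in both, and in the last CTCF array 1 was close to empty vector array 2 while both arrays of the smaller set were low. Log2 changes of these probe sets were 0.63 ± 0.26 and 0.65 ± 0.28.

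GCLC and GCLM are the catalytic and the modifier subunit of glutamate-cysteine ligase, which makes the first step of glutathione synthesis. GCLM 203925_at had 1382, 1664, 1487 and 2935 in CTCF arrays 1 to 4, against 2352 and 1297.5 in empty vector arrays 1 and 2. GCLM 236140_at had 543, 873, 771 and 892 in the CTCF arrays, against 698 and 543 in the empty vector arrays. GCLM 234986_at had 585, 860.0, 783 and 511 in the CTCF arrays, against 462 and 565 in the empty vector arrays. The groups overlapped in all of them, with log2 changes of 0.26 to 0.37, while within each set the CTCF mean was the higher. GCLC 202923_s_at had 159, 268, 244 and 75.6 in the CTCF arrays, against 55.4 and 169.8 in the empty vector arrays, and 202922_at had 194, 261, 253 and 74.85 against 56.7 and 210.2. In both, CTCF array 1 lay below empty vector array 2 and arrays 2 and 3 above it, and the log2 changes were 0.35 ± 0.22 and 0.22 ± 0.16. The third GCLC probe set, 1555330_at, had 1.17 to 10.05 in the CTCF arrays, against 2.69 and 18.5 in the empty vector arrays. TXNRD1 is the cytosolic selenoenzyme that recycles thioredoxin, and its probe set 201266_at had 2935, 2705, 2348 and 2526 in the CTCF arrays, against 2181 and 2112 in the empty vector arrays. All CTCF arrays were the higher ones, with a log2 change of 0.28 ± 0.14. TXNRD1 1561080_at had 1.07 to 10.7 in the CTCF arrays and 1.11 and 4.64 in the empty vector arrays.

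**Figure D3:**
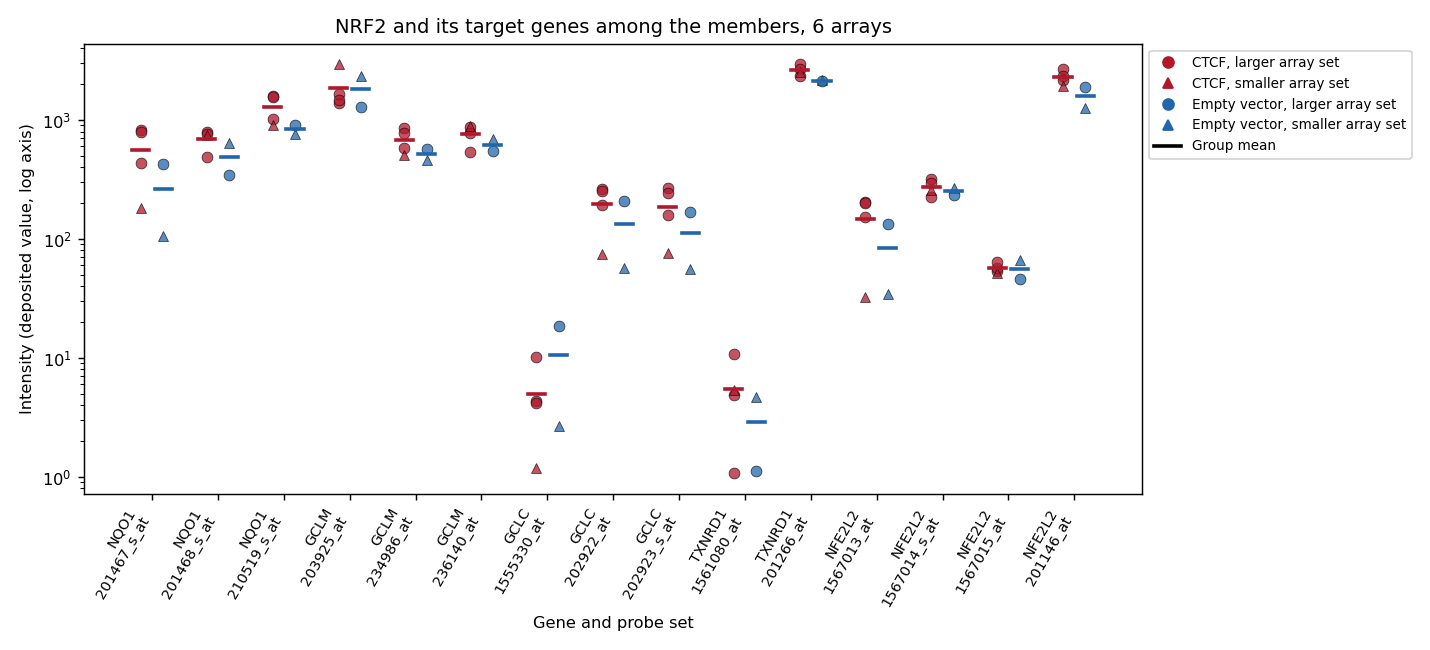
Intensity (log axis) of the 15 probe sets of NQO1, GCLM, GCLC, TXNRD1 and NFE2L2 on each array, with colours, symbols and bars for CTCF, empty vector, array set and group mean as in the legend. The CTCF arrays lie above both empty vector arrays in NQO1 210519_s_at, TXNRD1 201266_at and NFE2L2 201146_at, and the groups overlap in the other 12.

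Counting all 26 member probe sets, the CTCF arrays lay above both empty vector arrays in 4 and below both in 0, where 6.06% and 7.18% of all probe sets did so. Of these 4, AKR1C3 had a log2 change of 1.96, and the others were those of NQO1, TXNRD1 and NFE2L2, at 0.28 to 0.46. The plot of the changes by array set shows AKR1C3 apart from all other members in both sets.

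**Figure D4:**
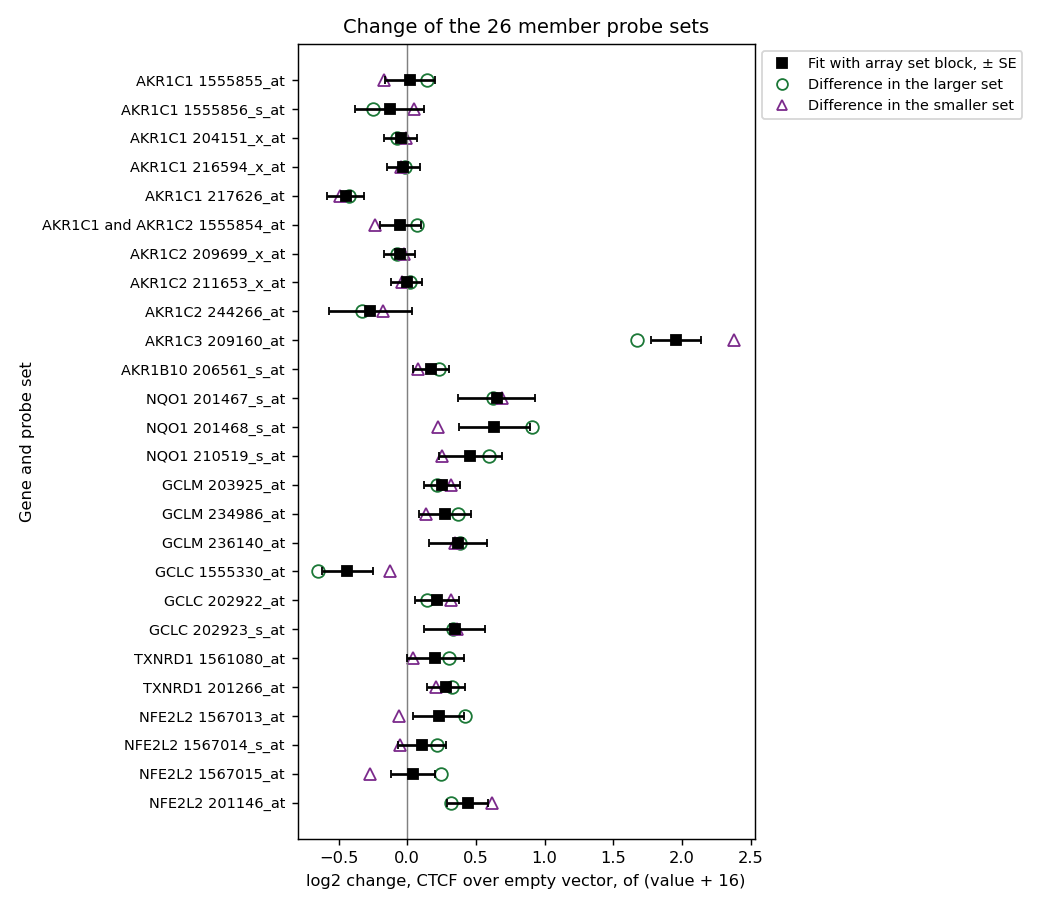
Log2 change (CTCF over empty vector) of the 26 member probe sets, squares for the fit with the array set block ± SE, open circles for the difference in the larger set and open triangles for that in the smaller. AKR1C3 is at 1.67 and 2.38 in the larger and smaller sets, and the other members lie between -0.65 and 0.91 in either.

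Other genes known as NRF2 targets went in both directions. Of 35 listed genes that are not members, 32 had a probe set with a single gene name, 1 rose and 0 fell, against 2.57% of all genes called in either direction. Their log2 changes had a median of 0.01, with 18 positive and 14 negative, against a median of -0.02 over all genes. ABCC3, an efflux pump for conjugated organic anions (239217_x_at), had 159.6, 146, 143 and 102 in CTCF arrays 1 to 4, against 42.9 and 82.1 in empty vector arrays 1 and 2. It rose by 0.85 ± 0.13 (limma, adjusted p = 0.0422), and the call ended without the block and without any 1 of the 6 arrays. The 4 other ABCC3 probe sets had values of 1.00 to 17.3 and did not pass, so the rise rests on 1 of 5 probe sets. SRXN1, which repairs oxidised peroxiredoxins, had 338, 457, 422 and 178 in the CTCF arrays, against 113 and 276 in the empty vector arrays (0.55 ± 0.16; limma, adjusted p = 0.151). TXN, for thioredoxin, had 4237 to 4528 in the CTCF arrays, against 3588 and 3536 in the empty vector arrays (0.30 ± 0.11; limma, adjusted p = 0.232). The dimmer TXN probe set 216609_at had 198 to 398, against 107 and 214 (0.72 ± 0.14; limma, adjusted p = 0.0671). HMOX1, for heme oxygenase 1, had 7.36 to 25.7 in the CTCF arrays, against 3.41 and 13.3 in the empty vector arrays, with a log2 change of 0.19 ± 0.20. For FTL, the light subunit of ferritin, it was 0.14 ± 0.11.

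SLC7A11, the cystine importer that feeds glutathione synthesis, differed within the CTCF group. Its probe set 209921_at had 2674, 597, 543 and 2115 in CTCF arrays 1 to 4, against 1188 and 1277 in empty vector arrays 1 and 2. CTCF arrays 1 and 4 lay above both empty vector arrays and CTCF arrays 2 and 3 below both, and the log2 change was 0.08 ± 0.72 (limma, adjusted p = 0.971). A second SLC7A11 probe set, 217678_at, had 1296, 422, 358 and 1505 in the CTCF arrays, against 821 and 614 in the empty vector arrays, with the same split. The dimmer 207528_s_at had 221, 70.6, 60.5 and 71.3 in the CTCF arrays, against 32.8 and 89.4 in the empty vector arrays, and did not show it. The split was not particular to SLC7A11 among the listed genes. CHAC1, listed under glutathione metabolism, had 894, 126, 74.2 and 847 in the CTCF arrays, against 275 and 320 in the empty vector arrays. SESN2, listed under the thioredoxin and peroxide system, had 2024, 580, 427 and 1950, against 1011 and 1097. Both were named after their values were seen. All 3 NQO1 probe sets, GCLC 202922_at and 202923_s_at, and GCLM 234986_at had their higher CTCF values on arrays 2 and 3. In NQO1 201468_s_at array 4 was close, at 748 against 759 on array 3. GCLM 203925_at and 236140_at were highest on CTCF array 4, at 2935 and 892, and the low-reading GCLC 1555330_at on CTCF array 1. In NQO1 201467_s_at and GCLC 202922_at and 202923_s_at, CTCF array 4 was low together with empty vector array 1 of its array set. Among CTCF arrays 1, 2 and 3, which share an array set, r across all probe sets was 0.991 for arrays 2 and 3 and 0.981 to 0.984 for array 1 with each of them.

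Some targets named after their values were seen lay near the threshold. PRDX1, a peroxiredoxin, had 9234, 9908, 9298 and 8559 in CTCF arrays 1 to 4, against 6009 and 6089 in empty vector arrays 1 and 2 (0.59 ± 0.12; limma, adjusted p = 0.0708). ME1, the cytosolic malic enzyme that makes NADPH, had 605, 772, 737 and 501 in the CTCF arrays, against 222 and 454 in the empty vector arrays (0.82 ± 0.18; limma, adjusted p = 0.0853). ABCC4, another efflux pump, had 1081, 1160.0, 1115 and 1083 in the CTCF arrays, against 1867 and 1563 in the empty vector arrays (-0.60 ± 0.13; limma, adjusted p = 0.0827). SQSTM1, the autophagy receptor that binds KEAP1, had 1243, 1582, 1428 and 1276 in the CTCF arrays, against 2046 and 2131 in the empty vector arrays (-0.62 ± 0.14; limma, adjusted p = 0.0941). The groups did not overlap in any of these, nor in 4 other listed targets, where 17.6% of all genes separated the groups.

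**Figure D5:**
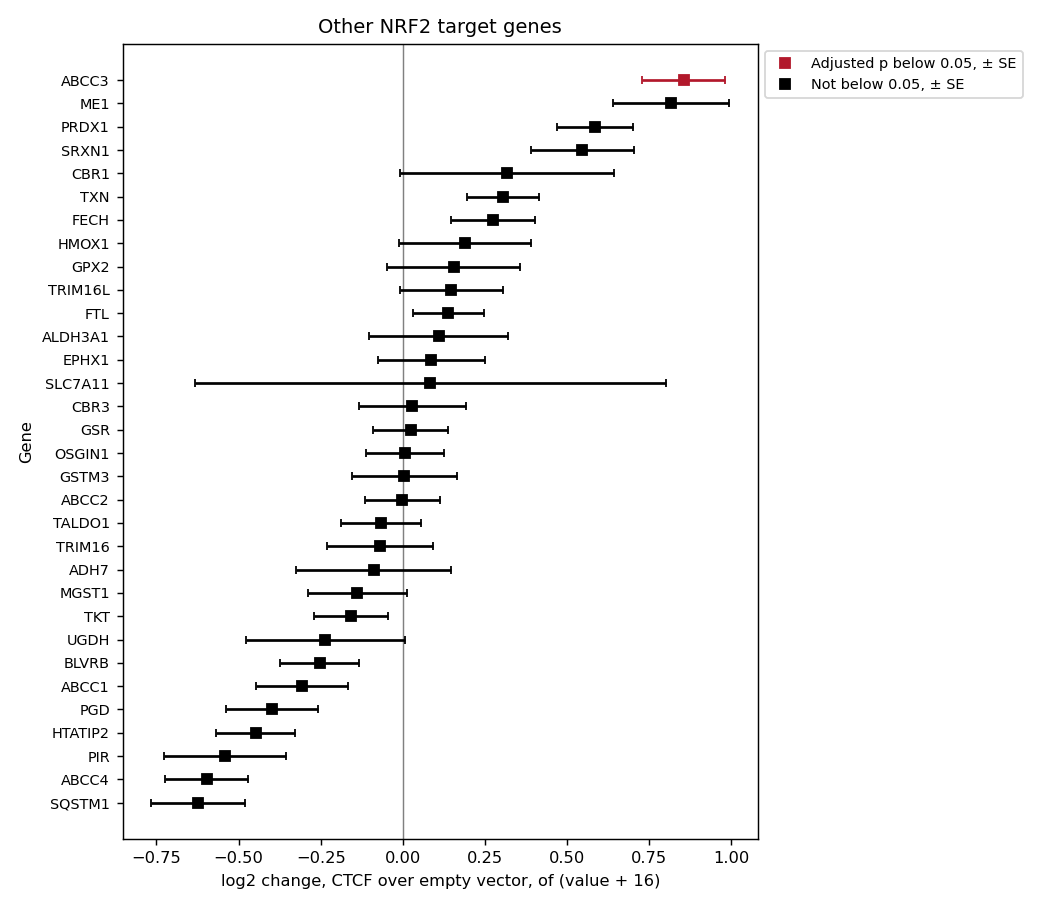
Log2 change ± SE (CTCF over empty vector, array set block) of the 32 measured NRF2 target genes that are not members, in order of size. ABCC3, in red at 0.85, passed the adjusted threshold, and the range runs from -0.62 for SQSTM1 to 0.85.

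None of the 21 measured regulators of NRF2 passed in limma, where 2.57% of all genes did. At an unadjusted p under 0.05, 6 were higher and 5 lower, where 21.4% of all genes were either. Their log2 changes ran from -0.73 for BACH2 to 1.31 for PGAM5, with a median of -0.003. KEAP1, the sensor that holds NRF2, had 471, 879, 777 and 289.9 in CTCF arrays 1 to 4, against 245 and 458 in empty vector arrays 1 and 2 (0.43 ± 0.27; limma, adjusted p = 0.495). CUL3 and RBX1, the ubiquitin ligase it works with, had 0.35 ± 0.13 and 0.16 ± 0.15. BACH1, the repressor at the same DNA site, had 1228, 1042, 948 and 927 in the CTCF arrays, against 1225 and 1408 in the empty vector arrays (-0.40 ± 0.15; limma, adjusted p = 0.238). Of the partners and relatives, MAFG, a small MAF protein, had 0.13 ± 0.18, and NFE2, the erythroid relative of NRF2, had 919 to 1683 in the CTCF arrays, against 1120.2 and 1714 in the empty vector arrays (-0.20 ± 0.13).

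In each of 3 neighbouring pathways 1 gene fell and 0 rose, where 2.57% of all genes were called in either direction. Of 32 genes of glutathione metabolism 1 fell, with a median of -0.14 against -0.02 over all genes. All CTCF arrays lay below both empty vector arrays in 11 of the 32 and above both in 3, against 9.63% and 8% of all genes. GPX8, a peroxidase of the endoplasmic reticulum (227628_at), had 46.0, 37.5, 53.2 and 27.3 in CTCF arrays 1 to 4, against 209.9 and 234 in empty vector arrays 1 and 2. It fell by 2.17 on the log2 scale (SE 0.16; limma, adjusted p = 0.0147), while a second GPX8 probe set had 1.00 to 24.9 in the CTCF arrays and 2.16 and 31.5 in the empty vector arrays and did not pass. Of 19 genes of the thioredoxin and peroxide system beyond the NRF2 targets, 1 fell, again beside 2.57% of all genes called, with a median of 0.07. MSRB2, a mitochondrial methionine sulfoxide reductase (218773_s_at), had 255, 434, 361 and 169.7 in the CTCF arrays, against 769 and 916 in the empty vector arrays. It fell by 1.66 (SE 0.26; limma, adjusted p = 0.0479), on 1 of its 3 probe sets, and the call ended without the block and without any 1 of the 6 arrays.

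Of 33 genes that act with AKR1C enzymes on steroids, prostaglandins or retinoids, 1 fell and 0 rose, where 2.57% of all genes were called, with a median of -0.04. PTGS1, the constitutive cyclooxygenase upstream of the prostaglandins that AKR1C3 reduces (205128_x_at), had 43.1, 57.1, 63.3 and 19.1 in CTCF arrays 1 to 4, against 137 and 348 in empty vector arrays 1 and 2. It fell by 2.28 on the log2 scale (SE 0.17; limma, adjusted p = 0.0144), and 3 of its 4 probe sets passed, all lower. The calls for GPX8 and PTGS1 ended without the block and when any array but CTCF array 1 was left out. Of the 8 measured relatives of the AKR family, 0 passed in limma or had an unadjusted p under 0.05. Of all genes 2.57% and 21.4% did so, and nothing is read from a count of 0 among so few. AKR7A2 and AKR7A3, aflatoxin aldehyde reductases, had -0.12 ± 0.13 and -0.16 ± 0.18. In the aryl hydrocarbon receptor pathway, which also acts on NQO1, 0 of 7 passed in limma and 1 was lower at an unadjusted p under 0.05, where 2.57% and 21.4% of all genes did so in either direction. Its partner ARNT had -0.01 ± 0.20 on its brightest probe set, 231016_s_at, and no other ARNT probe set passed. Of those, 230619_at had -0.63 ± 0.14 with overlapping groups (limma, adjusted p = 0.0853). TIPARP, a target of the receptor, had 643 to 1122 in the CTCF arrays, against 1245 and 1307 in the empty vector arrays (-0.63 ± 0.21; limma, adjusted p = 0.199).

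The genes whose pattern over the 6 arrays was most like that of AKR1C3 were read from Pearson r with its probe set on the log2 scale, among 4793 genes above the median with at least 50% of its range. They were HBBP1, a globin pseudogene, at 0.999, ZNF587B, a zinc finger gene, at 0.995, PTPRC, which encodes CD45, at 0.990, ZNF618 at 0.988 and KISS1R, the kisspeptin receptor, at 0.987. All 5 also rose in the CTCF cells, so a high r with AKR1C3 mostly repeats that group difference. Each r comes from the same 6 arrays and array sets, and whether these genes share regulation was not tested. HBBP1 had 1442, 1437, 1319 and 1542 in CTCF arrays 1 to 4, against 250.4 and 354 in empty vector arrays 1 and 2, with the highest CTCF value and the lowest empty vector value in the smaller set, as for AKR1C3.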

How the data were processed

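Biotin-labelled cRNA made from total RNA of K562 cells was read on Affymetrix U133 Plus 2.0 arrays, according to the labels. For each array the authors deposited a linear intensity for every probe set, by software and normalization not given in the sources used. A second table that the authors deposited, for a selection of probe sets, holds intensity means weighted by standard error and, as scores of the authors, signed fold changes with bounds and differences of means, per the file headers. Groups come from the sample titles.

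Values were analysed without further normalization on the scale log2(value + 16), which is not the authors' own, using limma 3.58.1 and R 4.3.3 (lmFit, eBayes, 2-sided, Benjamini-Hochberg over 54613 probe sets without the 62 AFFX controls, threshold 0.05). The array set, from hierarchical clustering on 45 spike-in probe sets, was a block. The fit was tested on simulated data. The members, lists, array sets and tests were chosen with earlier results of these data known. Gene names came from the platform annotation at GEO, in which 41091 probe sets carry 1 gene, 1801 carry several and 11721 are not listed. Of the singly named, 41037 matched RefSeq (GRCh38.p14) by Entrez ID. The deposited files name no genome build. For the lists, the probe set with the highest mean stood for a gene, and p-values stayed those of the whole table. Named by rule were the members, up to 4 called genes per list by size of change or else its 2 highest-reading genes, some genes picked by name, the chromosomal neighbours, CTCF, and the 5 genes most like AKR1C3, leaving out LOC, LINC and orf names. Genes without a singly named probe set were not analysed here. The number of arrays limits the precision. Alternatives were a fit without the block, the replicate number as block, quantile normalization, median centring, pseudocounts of 1 and 64, a filter on low values, a variance trend, a threshold of 0.01, mean probe sets and leaving out each array. Promoters were aligned with Biopython 1.88.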

Additional observations from a re-analysis of the deposited data

Results flagged for a closer look

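In 9 of 67 probe sets tested, 1 of the 4 CTCF arrays lay apart from the other three by Dixon's ratio of its gap to the group's whole range, where chance flags about 1 in 20 groups. CTCF array 4, of the smaller array set, was the array apart for AKR1C1 1555855_at (0.87, at 46.8), FTL (0.834), UCN3 (0.949), CALD1 (0.931) and TMEM140 (0.85). CTCF array 1 was the low one for AKR1C2 244266_at (0.83, at 8.48) and NQO1 201468_s_at (0.874, at 491). CTCF array 2 was the high one for CALML5 (0.835) and for CTCF itself (0.93, at 1614).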

How the results depend on the processing

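With the array set block 1017 probe sets were called. The number was 6 without the block, 2 with a pseudocount of 1, 2140 with a pseudocount of 64, 2642 above the median, 2567 with a variance trend, 22 at a threshold of 0.01 and 0 to 762 when 1 array was left out, with or without the block (9 without both CTCF array 4 and the block). Quantile normalization gave 512 higher and 695 lower, against 294 and 723. Member probe sets called were 1, and 0 without the block, with a pseudocount of 1, at a threshold of 0.01, and 0 to 1 with an array left out. NRF2 targets called were 1, and 0 without the block, with a pseudocount of 1, at 0.01 and with any array left out, 4 with a pseudocount of 64, 5 above the median, 5 with a variance trend and 2 (ME1 and PRDX1) from mean probe sets. These calls added PRDX1 and ME1 as higher and ABCC4, SQSTM1 or HTATIP2 as lower. CYREN passed under 5 alternatives. With the replicate number as a block, in place of the array set, 0 probe sets, 0 members and 0 targets were called. Same-numbered arrays had deviations from their group means correlated at -0.68 for number 1 and 0.70 for number 2. With 2 empty vector arrays their deviations are equal and opposite, so the 2 correlations are not separate readings. The arrays numbered 1 lay in different array sets and those numbered 2 in the same set. These correlations therefore cannot tell whether the numbers pair the arrays. No named probe set that was called changed sign under any alternative. Where the calls differed between alternatives, the cause was not tested. Values near 16 or below are compressed by the pseudocount, and with 2 empty vector arrays the spread of that group is poorly known.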
